A study of Mus musculus with 16 samples.

Results

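The chemokine system of inguinal white adipose tissue (iWAT) was described here gene by gene, from the ligands to the receptors they act on and the atypical receptors that take them up. Members were the protein-coding rows of the deposited table whose symbol begins with Ccl, Cxcl, Cx3cl, Xcl, Ccr, Cxcr, Cx3cr, Xcr or Ackr and a digit, without Ccl19, Ccl21a, Cxcl13, Ccr7 and Cxcr5, which mark lymph node tissue. These were 60 of 54532 rows, with 56 different symbols, and comprised 39 ligand rows, 17 receptor rows and 4 atypical receptor rows. Of the 60, 55 lie on chromosomes and 5 on unplaced scaffolds, which hold further copies of Ccl21b, Ccl21c and Ccl27a. Reads of such near-identical copies could have been split or lost in the counting, so their levels are uncertain.

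Bulk RNA was sequenced from iWAT of 16 male mice aged 8 to 10 weeks, 4 in each of 4 groups, fed chow containing doxycycline (200 mg/kg) for 5 days. Has2_TG mice carried the transgenes Apn-rtTA and TRE-Has2, and PH20_TG mice carried Apn-rtTA and TRE-PH20. The control groups, Has2_WT and PH20_WT, were littermates with Apn-rtTA alone, so that every mouse had rtTA and doxycycline. The adiponectin promoter drives rtTA in adipocytes, hence the transgenes are made by adipocytes, whereas the libraries hold all cells of the fat pad. Has2 is a hyaluronan synthase and PH20, encoded by Spam1, a hyaluronidase, and the comparisons ask what more or less of the matrix polymer hyaluronan does to the tissue.

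Chemokines are small secreted proteins that guide leukocytes along gradients, which are held on glycosaminoglycans of cell surfaces and matrix. CC and CXC ligands bind G protein-coupled receptors on leukocytes, often several ligands to 1 receptor. Atypical receptors bind chemokines without G protein signalling and scavenge or transport them. In adipose tissue, macrophages, stromal progenitor cells, endothelial cells and lymphocytes all make or sense chemokines.

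Each library had between 14421692 and 26751729 reads on genes. Adipocyte markers (8 genes) summed to 9150 to 26964 FPKM in every library, as the tissue label has it. FPKM is the number of reads scaled to the length of the gene and the size of the library. Has2 was at 1.86 to 3.24 FPKM in Has2_TG against 0.417 to 0.806 in Has2_WT, with endogenous and transgene reads counted together. Spam1 had 6, 12 and 5 reads in PH20_TG replicates 2, 3 and 4 and no read in the 12 libraries of the other groups. It also had 0 reads in the library labelled PH20_TG replicate 1, where 0 reads allows up to 3. Has2 reached 3.32 and 3.26 FPKM in the libraries labelled PH20_TG replicates 1 and 4, as high as in Has2_TG. In 4 control libraries, Has2_WT replicates 1 and 2 and PH20_WT replicates 1 and 3, the B cell markers (6 genes) summed to 112 to 299 FPKM, against 1.25 to 5.93 in the other 12. Those 4 libraries are called B cell-rich below, and results that rest on them are also given without them.

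The most abundant members were CC ligands of macrophages and stroma. Ccl6, a ligand of Ccr1, had the highest mean over the 16 libraries, 69.7 FPKM, and was followed by Ccl8, a ligand of the MCP group, at 50.6. Next came the homeostatic CXC ligand Cxcl14 at 30.4, then Ccl5, Ccl11, Ccl9 and the atypical receptor Ackr3 at 25.4, 24.9, 24.6 and 24.0. Cxcl12, the stromal ligand of Cxcr4, averaged 17.4 FPKM, the interferon-induced ligand Cxcl9 16.01, Ackr1 11.4, the eotaxin Ccl24 8.50 and the monocyte receptor Ccr2 7.15. Over the 12 libraries other than the B cell-rich controls, Ccl5 had a mean of 7.43 FPKM, the 11th highest of the members. The order among neighbours was not fixed, since the levels of each varied several-fold between libraries. Over the 16 libraries the highest exceeded the lowest value 2.47-fold for Cxcl12 and 2.90-fold for Cxcl9, and 8.72-fold for Ccl6, 9.69-fold for Ccl8 and 217-fold for Ccl5. Cxcl12 and Cxcl9 were thus the steadiest of the abundant members. The 5 most abundant members made up 54.9% of the summed FPKM of all 60.

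**Figure D1:**
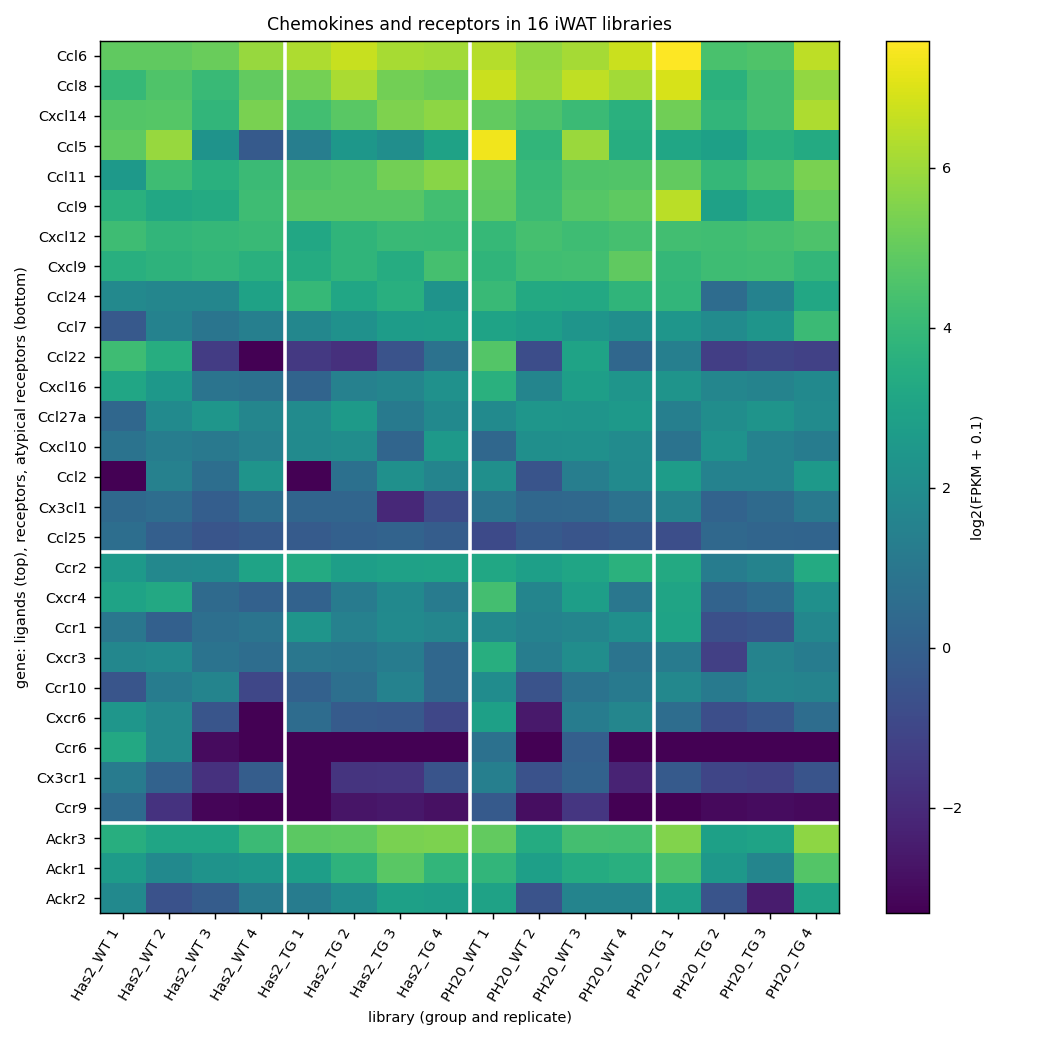
Level of 29 of the 30 tested members (rows: ligands, receptors, atypical receptors, each ordered by mean level) in the 16 libraries (columns, 4 per group), as log2(FPKM + 0.1). Ccl6 and Ccl8 are bright in most libraries, Ccl22 and Ccr6 are brightest in the B cell-rich control libraries, and PH20_TG replicates 2 and 3 are darker than replicates 1 and 4 for Ccl6, Ccl9, Ccr1 and Ackr1 to Ackr3.

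Many members of the family had few or no reads. No read fell on 6 rows in any library: Cxcl3, Cxcl5, Ccl21b of chromosome 4, 1 scaffold copy of Ccl21c and both scaffold copies of Ccl27a. The ligands of Cxcr2 that draw neutrophils were near or at the floor, with Cxcl1 at a mean of 0.360 FPKM, Cxcl2 at 0.104 and Cxcl15 at 0.00177. Cxcr1 had 2 reads and Cxcr2 306 reads over all 16 libraries, 97.7% of the latter in the 4 B cell-rich libraries. The eotaxin receptor Ccr3 had 11 reads in all, while its ligands Ccl11 and Ccl24 were abundant. Markers of eosinophils (4 genes) and neutrophils (8 genes) summed to at most 1.82 and 7.33 FPKM in any library, with Ear6 and Ly6g at 0 in all. Only genes that averaged 50 reads or more were tested, a limit that 29 members passed in the Has2 libraries, 28 in the PH20 libraries and 30 in at least 1 of these. The other 30 members averaged under 50 reads in each of these fits and are not described as unchanged.

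The Has2_TG group had higher levels than Has2_WT of macrophage- and stroma-type CC ligands, of 2 receptors for them and of 3 atypical receptors. Of the 29 members tested, 11 were higher and 0 lower in Has2_TG than in Has2_WT at an unadjusted p below 0.05 (limma on log2(FPKM + 0.1), two-sided, 4 libraries per group). Over all 12606 genes tested, 6.25% were higher and 3.75% lower by the same rule. The 11 were the ligands Ccl6, Ccl9, Ccl8, Ccl7, Ccl11 and Ccl24, the receptors Ccr1 and Ccr2 and the atypical receptors Ackr1, Ackr2 and Ackr3. In 8 of them (Ccl6, Ccl9, Ccl8, Ccl7, Ccl11, Ccr1, Ackr1 and Ackr3) all Has2_TG libraries lay above all Has2_WT libraries, a pattern that 4.08% of all tested genes showed, and no tested member showed the opposite, against 2.11%. After Benjamini-Hochberg adjustment over all genes, 0 members and 0.103% of genes passed 0.05, and the smallest adjusted p of a member was 0.0540, for Ackr3. With voom weights 11 were again higher and 0 lower, where 6.32% of all genes were higher and 3.54% lower. After adjustment 1 of the 11 passed in that fit. The median log2 fold change was 0.29 over the 29 members and -0.03 over all genes.

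**Figure D2:**
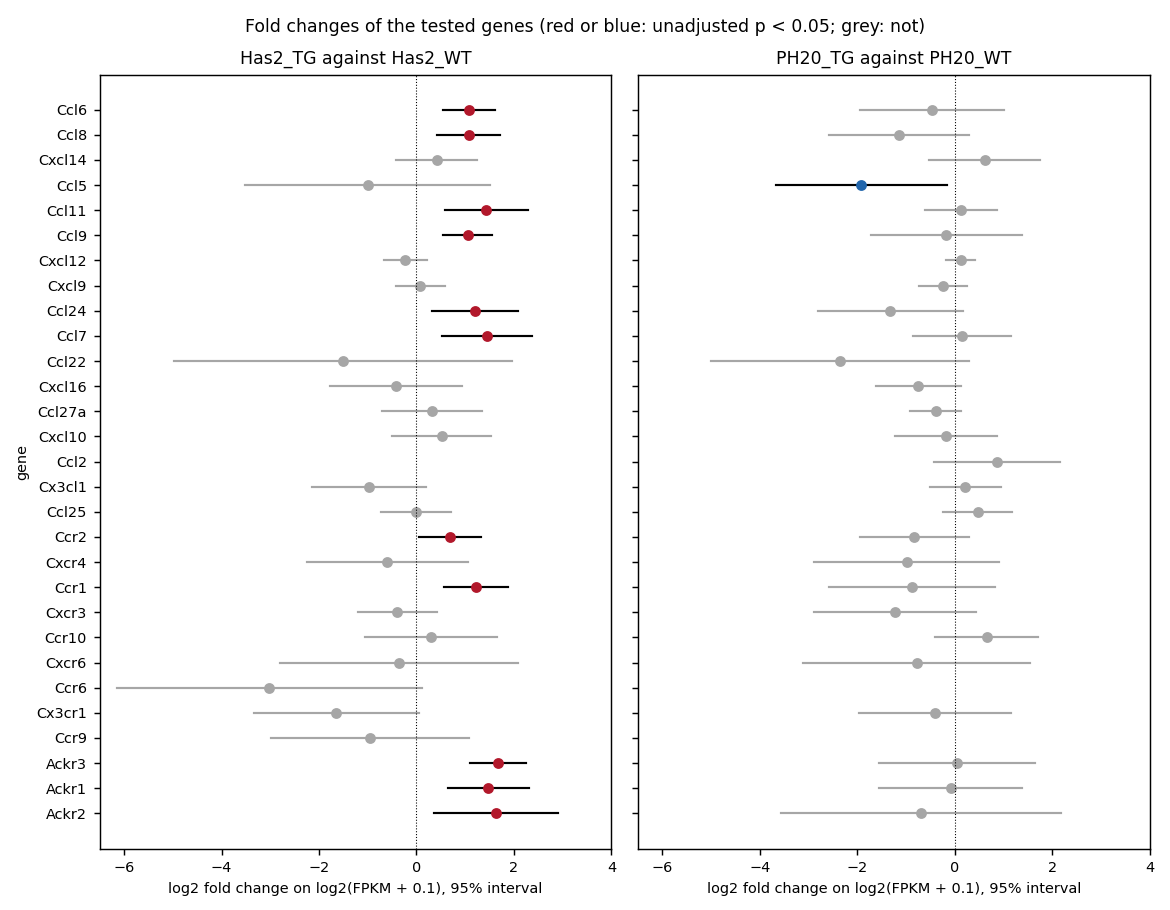
log2 fold change (point) with its 95% interval (line) for 29 of the 30 tested members, where tested, in Has2_TG against Has2_WT (left) and PH20_TG against PH20_WT (right), from limma on log2(FPKM + 0.1). The 11 red points, all in the left panel, lie between 0.69 and 1.68, and Ccl5 is the single blue point, at -1.92 in the right panel.

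Ccl6 and Ccl9 are CC ligands of the MIP group that myeloid cells make and that act on Ccr1. Their genes are neighbours on the minus strand of chromosome 11 in GRCm38, Ccl9 (ENSMUSG00000019122) at chr11:83572919-83578636 and Ccl6 (ENSMUSG00000018927) at chr11:83587882-83593087, 9.25 kb apart. The RefSeq promoter windows of 300 bases (GRCm38.p6, 250 before and 50 from the start on, minus strand) are shown because both ligands moved together, Ccl6 at chr11:83593038-83593337 and Ccl9 at chr11:83578587-83578886. Capitals mark the stretches of at least 10 bases that the pair share.
Ccl6: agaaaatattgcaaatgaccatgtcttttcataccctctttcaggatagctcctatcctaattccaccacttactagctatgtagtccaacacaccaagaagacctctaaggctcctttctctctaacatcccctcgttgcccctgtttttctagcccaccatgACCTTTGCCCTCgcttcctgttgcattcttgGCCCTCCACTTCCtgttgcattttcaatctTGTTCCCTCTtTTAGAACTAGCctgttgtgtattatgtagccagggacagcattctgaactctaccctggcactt
Ccl9: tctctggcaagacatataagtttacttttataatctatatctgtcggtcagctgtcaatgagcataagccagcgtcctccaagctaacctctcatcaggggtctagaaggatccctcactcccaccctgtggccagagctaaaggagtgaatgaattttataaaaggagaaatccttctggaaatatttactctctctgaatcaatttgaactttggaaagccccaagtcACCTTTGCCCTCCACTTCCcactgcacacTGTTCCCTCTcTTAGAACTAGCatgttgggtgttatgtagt
The longest shared stretch, of 13 bases, lies at -55 to -43 in Ccl6 and at -14 to -2 in Ccl9, counted from the start base as 1 with no 0. It is found on this strand in 3 of 32851 RefSeq promoter windows, and the other 3 shared stretches have 12, 11 and 10 bases. In Ccl9 the stretches of 13 and 12 bases overlap. The 13-base stretch ends in the reverse complement of GGAAGT, an ETS core that 23.8% of all windows hold on either strand and that can overlap the PU.1 box described with Ccr1. TATAAA was found in the window of Ccl9 and not in that of Ccl6.

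Ccl6 was at 30.3, 30.4, 33.8 and 59.9 FPKM in Has2_WT and at 74.8, 101.5, 72.3 and 68.3 in Has2_TG. The groups did not overlap, although Has2_WT replicate 4 stood near the transgenic libraries. The means were 38.6 ± 14.3 and 79.2 ± 15.1 (SD, n = 4), and the log2 fold change was 1.08 (SE 0.24, adjusted p = 0.102, limma). Ccl9 was at 12.1, 9.30, 10.1 and 18.6 FPKM in Has2_WT and at 27.2, 27.2, 27.3 and 19.5 in Has2_TG. Here too all transgenic libraries were above all controls, the lowest by under 1 FPKM. Its log2 fold change was 1.05 (SE 0.23, adjusted p = 0.0989, limma).

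Ccr1 (ENSMUSG00000025804, chr9:123962124-123968692, minus strand) encodes the receptor of Ccl6 and Ccl9 on monocytes and macrophages. Its promoter window at chr9:123968643-123968942 holds the PU.1 box GAGGAA, shown in capitals, at -129 to -124, which 28.3% of all windows hold on either strand.
Ccr1: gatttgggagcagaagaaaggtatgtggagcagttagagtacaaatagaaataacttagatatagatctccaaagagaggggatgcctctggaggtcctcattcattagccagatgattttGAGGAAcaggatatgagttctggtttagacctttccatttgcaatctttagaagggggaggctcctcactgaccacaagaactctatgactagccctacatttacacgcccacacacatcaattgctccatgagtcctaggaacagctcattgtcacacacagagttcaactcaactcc
Ccr1 was at 1.92, 0.911, 1.48 and 1.74 FPKM in Has2_WT and at 5.08, 2.68, 3.68 and 3.16 in Has2_TG. The receptor and its 2 ligands were thus all higher in every transgenic library than in every control. The log2 fold change of Ccr1 was 1.23 (SE 0.29, adjusted p = 0.131, limma). Ccl5, another ligand of Ccr1, did not pass the test (log2 fold change -1.002, 95% interval -3.52 to 1.51). Ccl3 had a mean of 2.63 reads in the Has2 libraries and Ccl4 7.13, and neither was tested.

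The MCP ligands and the eotaxin Ccl11 lie together on chromosome 11, in the order Ccl2, Ccl7, Ccl11, Ccl12 and Ccl8. Ccl8 (ENSMUSG00000009185, chr11:82115185-82116799, plus strand) had a promoter window at chr11:82114935-82115234 with TATAAA, in capitals, at -32 to -27, where a TATA box usually lies. TATAAA was found on either strand in 13.6% of all windows and in those of 14 of the 43 members with a window. The other motifs searched on both strands were the AP-1 site TGANTCA, in 7.81% of all windows, 9 of the 43 members and, of the 8 called members with a window, Ccl9 alone, and the core of the interferon-stimulated response element (GAAA, any 2 bases, and GAAA again), in 3.44% of all windows, 2 of the 43 and 0 of the 8.
Ccl8: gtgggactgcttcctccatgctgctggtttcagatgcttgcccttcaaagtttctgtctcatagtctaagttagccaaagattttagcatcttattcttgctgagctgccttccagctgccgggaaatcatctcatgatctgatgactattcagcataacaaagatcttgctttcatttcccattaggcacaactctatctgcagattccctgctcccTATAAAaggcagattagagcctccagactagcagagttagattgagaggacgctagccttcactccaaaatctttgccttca
Ccl8 was at 15.6, 23.7, 16.8 and 31.7 FPKM in Has2_WT and at 39.1, 74.0, 38.7 and 34.3 in Has2_TG. Has2_TG replicate 2 was the highest and the groups did not overlap. The log2 fold change was 1.07 (SE 0.29, adjusted p = 0.197, limma). Ccr8, which binds mouse Ccl8, had 134 reads over all 16 libraries and was not tested. Ccl7 (ENSMUSG00000035373), which attracts monocytes through Ccr2, was at 0.733, 2.72, 1.76 and 2.55 FPKM in Has2_WT and at 3.17, 4.44, 6.40 and 6.57 in Has2_TG. It was higher in all 4 transgenic libraries, with a log2 fold change of 1.45 (SE 0.41, adjusted p = 0.214, limma).

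Ccl2, the best known ligand of Ccr2, could not be tested in the Has2 libraries. It had 0, 53, 28 and 108 reads in Has2_WT and 0, 29, 94 and 69 in Has2_TG, so that both groups held a library without a read, and its mean of 47.6 reads was under the minimum for the test. Ccl12 had 51, 22, 11 and 11 reads in Has2_WT and 0, 24, 0 and 97 in Has2_TG, and was not tested either. Ccr2 itself (ENSMUSG00000049103), which brings monocytes into tissue, was at 5.94, 3.33, 3.52 and 7.92 FPKM in Has2_WT and at 10.0, 6.86, 7.41 and 7.61 in Has2_TG. The groups overlapped, since Has2_WT replicate 4 was above 3 of the transgenic libraries. Its log2 fold change of 0.69 (SE 0.29, adjusted p = 0.455, limma) was the smallest of the 11. Without Has2_WT replicate 2 or 3 or Has2_TG replicate 1, 3 or 4 its unadjusted limma p was 0.107, 0.101, 0.0983, 0.0552 and 0.0611.

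The eotaxins Ccl11 and Ccl24, ligands of the eosinophil receptor Ccr3, were both higher in Has2_TG. Ccl11 (ENSMUSG00000020676, chr11:82057823-82062955), which stromal cells make, was at 5.70, 18.4, 12.1 and 17.4 FPKM in Has2_WT and at 24.2, 25.8, 38.0 and 50.6 in Has2_TG. All transgenic libraries were above all controls, and the log2 fold change was 1.43 (SE 0.38, adjusted p = 0.181, limma). Ccl24 (ENSMUSG00000004814, chr5:135569937-135573049), which macrophages make, was at 3.46, 3.14, 3.14 and 7.64 FPKM in Has2_WT and at 15.8, 8.61, 11.6 and 4.84 in Has2_TG. Here Has2_TG replicate 4 was below Has2_WT replicate 4, so that the groups overlapped. The log2 fold change was 1.198 (SE 0.40, adjusted p = 0.318, limma). Their receptor Ccr3 had 1 read in the 8 Has2 libraries.

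The 3 atypical receptors that were tested were all higher in Has2_TG. Ackr3 (ENSMUSG00000044337, chr1:90203980-90216751, plus strand), which scavenges Cxcl12, had the smallest p of all members. Its promoter window at chr1:90203730-90204029 holds TATAAA, in capitals, at -8 to -3.
Ackr3: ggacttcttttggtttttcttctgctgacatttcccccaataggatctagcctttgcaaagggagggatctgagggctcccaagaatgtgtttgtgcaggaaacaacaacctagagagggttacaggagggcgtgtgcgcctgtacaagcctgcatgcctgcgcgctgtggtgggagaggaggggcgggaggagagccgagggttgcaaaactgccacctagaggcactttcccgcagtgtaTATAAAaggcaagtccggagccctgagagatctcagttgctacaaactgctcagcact
Ackr3 was at 11.4, 8.34, 8.52 and 17.3 FPKM in Has2_WT and at 28.4, 29.1, 42.2 and 43.1 in Has2_TG. The lowest transgenic library was above the highest control by more than 10 FPKM. Means were 11.4 ± 4.20 and 35.7 ± 8.06 (SD, n = 4), the log2 fold change was 1.68 (SE 0.26, 95% interval 1.10 to 2.25) and the adjusted p was 0.0540 (limma).

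Its ligand Cxcl12 was at 18.1, 14.6, 15.3 and 16.5 FPKM in Has2_WT and at 9.33, 13.9, 16.7 and 16.3 in Has2_TG. These values overlapped, and the log2 fold change was -0.23 (95% interval -0.67 to 0.22). Cxcr4, the signalling receptor of Cxcl12, was at 7.90, 9.61, 1.27 and 0.956 FPKM in Has2_WT and at 0.987, 2.23, 3.52 and 2.25 in Has2_TG (log2 fold change -0.60, 95% interval -2.25 to 1.06). Its high controls were the 2 B cell-rich libraries.

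Ackr1 (ENSMUSG00000037872, chr1:173331886-173333750), the Duffy receptor of venular endothelium and red cells, was at 6.27, 3.55, 4.78 and 5.44 FPKM in Has2_WT and at 6.83, 13.3, 27.9 and 14.3 in Has2_TG. The groups did not overlap, but Has2_TG replicate 1 was close to the controls. The log2 fold change was 1.48 (SE 0.37, adjusted p = 0.1504, limma). Summed endothelial markers (7 genes) were 105 to 199 FPKM in Has2_WT and 137 to 237 in Has2_TG, and Ackr1 amounted to 2.74% to 4.15% of that sum in Has2_WT and to 4.98% to 11.8% in Has2_TG. Erythroid markers (3 genes) summed to 292 to 455 FPKM in Has2_WT and to 331 to 1153 in Has2_TG, and their part in the Ackr1 result was not tested. Ackr2 (ENSMUSG00000044534, chr9:121898355-121911074), a scavenger of inflammatory CC ligands on lymphatic endothelium, was at 3.51, 0.569, 0.810 and 2.24 FPKM in Has2_WT and at 2.27, 3.91, 7.33 and 6.76 in Has2_TG. The groups overlapped, the log2 fold change was 1.64 (SE 0.57, adjusted p = 0.355, limma), and without Has2_TG replicate 3 the unadjusted limma p was 0.0509. Ackr4, the remaining atypical receptor, had under 50 reads on average and 0.189 FPKM.

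**Figure D3:**
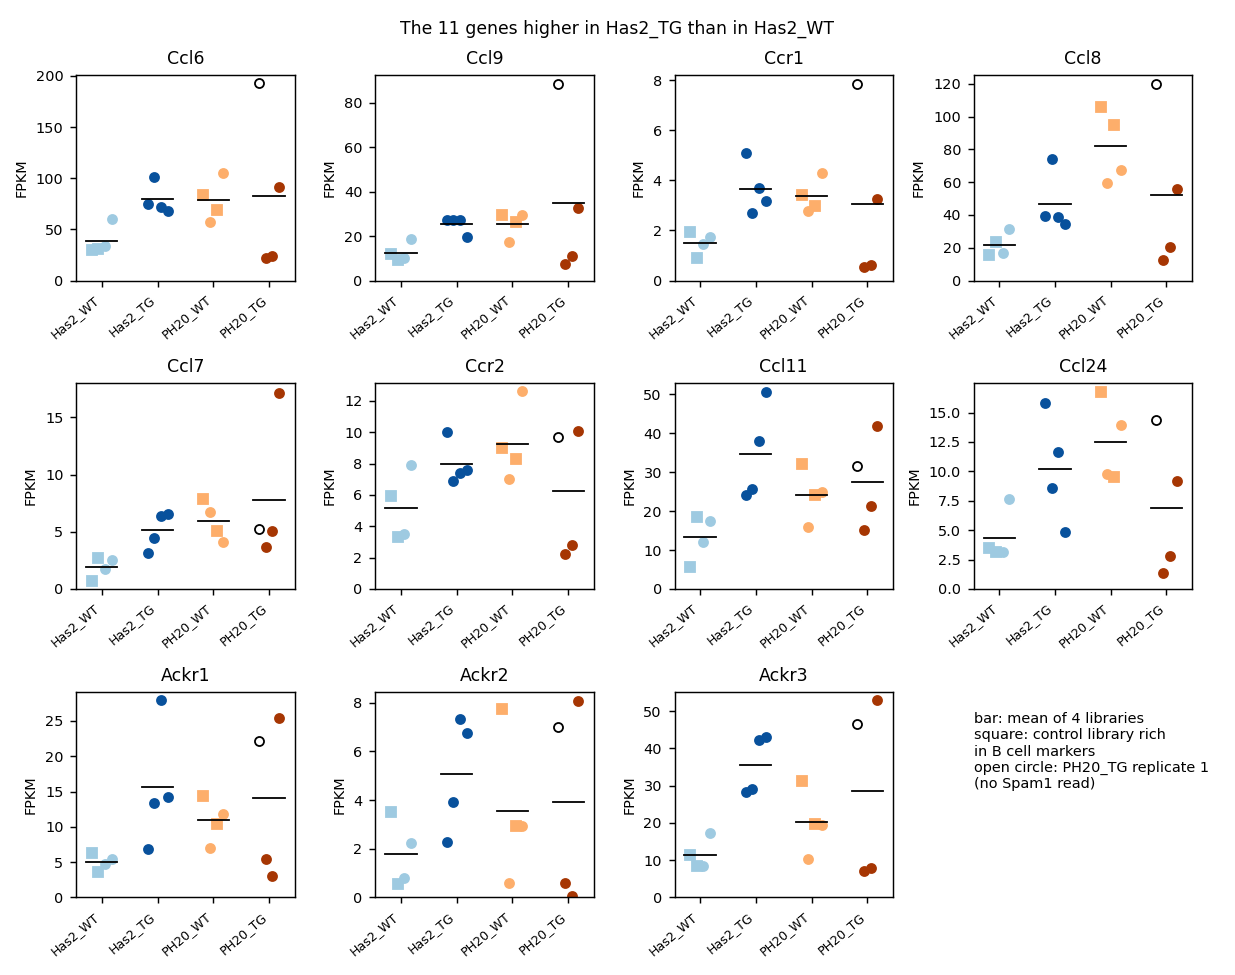
FPKM of the 11 members that were higher in Has2_TG than in Has2_WT, in each of the 16 libraries (points) with the mean of 4 libraries (bar). Squares are the B cell-rich control libraries and the open circle is the library labelled PH20_TG replicate 1, in which no Spam1 read was found; in PH20_TG, replicates 2 and 3 lie low and replicates 1 and 4 high in most panels.

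Markers of macrophages and of adipocyte progenitors moved with these genes. The 10 macrophage markers summed to 323 to 643 FPKM in Has2_WT and to 695 to 926 in Has2_TG, and 6 of the 10 were higher at an unadjusted p below 0.05. The 7 progenitor markers summed to 162 to 346 FPKM in Has2_WT and to 517 to 740 in Has2_TG, and 6 of the 7 were higher. Both sums were thus separate between the groups, as were 8 of the chemokine genes, and no marker of either list was at 0 in all libraries. In bulk tissue, more cells of a type and more RNA per cell cannot be told apart.

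With the macrophage score (the mean log2 level of those markers) as a covariate, all 11 kept a positive fold change and 3 kept an unadjusted limma p below 0.05, while Cx3cr1 was lower (-2.63). The 3 were Ackr3 (log2 fold change 1.17, unadjusted limma p of 0.00912), Ccl11 (1.80, p of 0.0142) and Ccl7 (1.73, p of 0.0267). Ccl6 then had a log2 fold change of 0.69 (unadjusted limma p of 0.0744), Ccl9 0.46 (p of 0.112) and Ccr1 0.92 (p of 0.0766). Over all genes 4.53% were higher and 2.90% lower in this fit. The B cell-rich controls held 64% of the reads of Cx3cr1. Since the macrophage sums are separate between the groups, the score and the group cannot be told apart well here. A p kept or lost therefore does not assign a gene to those cells. With the progenitor score, an alternative added after seeing the data, 9 of the 11 kept a positive fold change and 0 of the 11 passed (unadjusted limma p from 0.146 to 0.633), where 1 other member was higher and 2 were lower. The fold changes were then 1.09 for Ccl11, 1.18 for Ccl7 and 1.05 for Ccl8, but 0.41 for Ackr3, 0.46 for Ccl9 and 0.36 for Ackr1. In that fit the score and the group cannot be told apart well, since the scores do not overlap between Has2_WT and Has2_TG. As a share of the macrophage sum, Ccl6 was 5.55% to 10.5% in Has2_WT and 9.83% to 10.96% in Has2_TG, and Ccl9 was 1.70% to 3.13% and 2.81% to 3.71%. As a share of the progenitor sum, Ackr3 was 4.80% to 5.27% in Has2_WT and 5.43% to 6.04% in Has2_TG. Ccl11 was 2.62% to 10.6% of that sum in Has2_WT and 4.67% to 7.08% in Has2_TG, and Ccl7 was 0.337% to 1.56% and 0.613% to 0.919%. The share of Ackr3 was separate between the groups, by a small margin, while the shares of Ccl6, Ccl9, Ccl11 and Ccl7 overlapped.

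**Figure D4:**
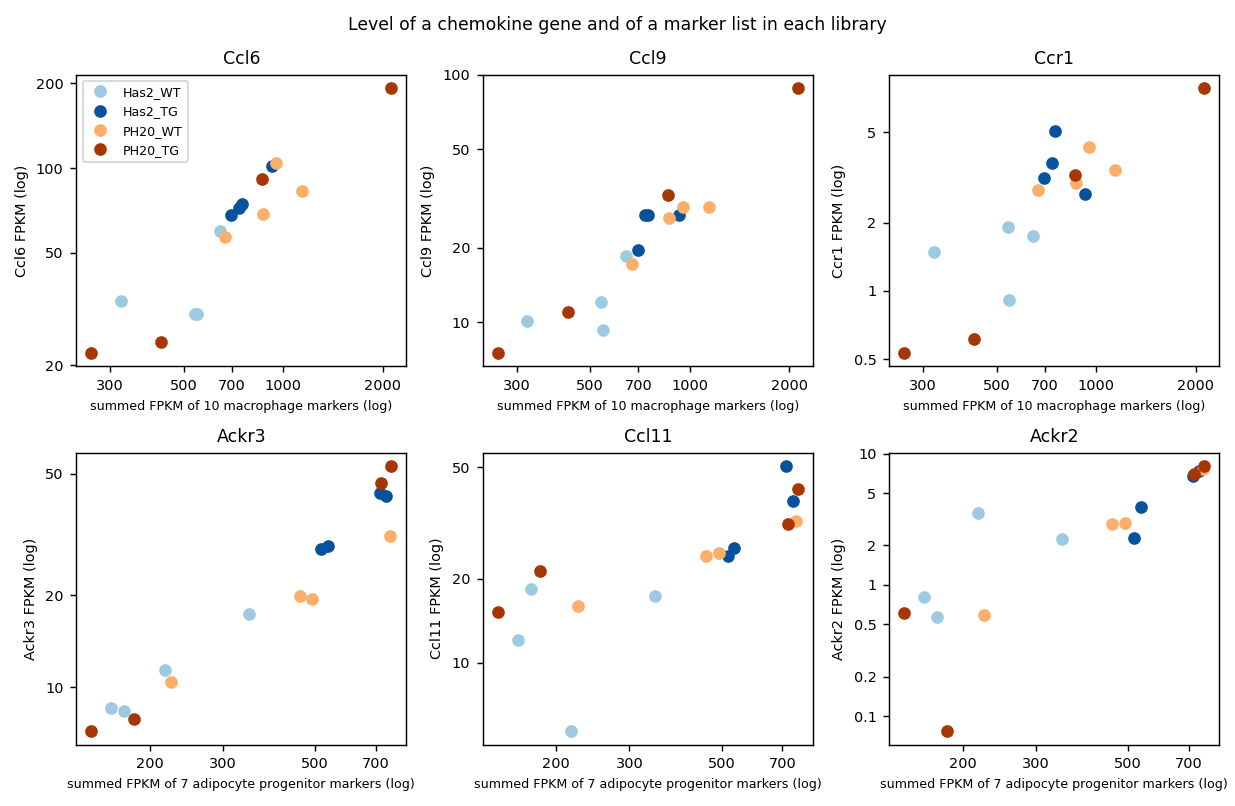
FPKM of 6 members (vertical, log scale) against the summed FPKM of 10 macrophage markers or 7 adipocyte progenitor markers (horizontal, log scale), 1 point per library, coloured by group. Ccl6, Ccl9 and Ccr1 are low where macrophage markers are low, Ackr3 rises with the progenitor markers from 7.16 to 53.0 FPKM, and the library labelled PH20_TG replicate 1 is the highest point of the upper panels.

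Without Has2_WT replicates 1 and 2, the B cell-rich controls of this study, 9 of the 11 passed and the fold changes stayed positive. In that fit 5.96% of all genes were higher and 3.64% lower. Ccl24 (log2 fold change 0.92, unadjusted limma p of 0.105) and Ccr2 (0.57, p of 0.123) no longer passed. In a fit of all 16 libraries, whose spread includes that of PH20_TG, 4 members were higher (Ackr3, Ackr1, Ccl11 and Ccl7) and 3 lower (Ccr6, Cx3cr1 and Cx3cl1). Of all genes, 6.37% were higher and 4.82% lower there. Ccr6 and Cx3cr1 passed the minimum of reads only through the B cell-rich controls, which held 99.9% and 64% of their reads. Their lower values in Has2_TG therefore cannot be weighed.

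The interferon-induced ligands of Cxcr3 and the other homeostatic ligands did not pass the test in Has2_TG. Cxcl9 had a log2 fold change of 0.08 (95% interval -0.42 to 0.58) and Cxcl10 0.52 (-0.50 to 1.53). Cxcr3, their receptor on T cells, had -0.39 (-1.20 to 0.41). Cxcl14 had 0.41 (-0.42 to 1.25), Ccl25 -0.01 (-0.73 to 0.71) and Ccl27a, a ligand of Ccr10, 0.32 (-0.70 to 1.34). Cx3cl1, the membrane-bound ligand of Cx3cr1, had -0.98 (-2.15 to 0.20) and Cx3cr1, a receptor of monocytes and macrophages, -1.64 (-3.32 to 0.04). The intervals of Cxcl9 and Ccl25 excluded a 2-fold change in either direction, and those of the others did not.

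In PH20_TG few members were past the threshold. Of the 28 members tested, 0 were higher and 1 was lower in PH20_TG than in PH20_WT (limma, unadjusted p below 0.05), where 3.20% of all 12532 genes were higher and 3.39% lower. The share of members called, 3.57%, was close to that background. With voom weights 0 were higher and 1, Ccl24, was lower, against 3.30% and 3.18% of all genes. In 0 tested members did all PH20_TG libraries lie above or all below the controls, as they did in 2.21% and 2.33% of all genes. Ccr8, too low to be tested, was at 2.79, 0.541, 1.122 and 0.487 FPKM in PH20_WT and had no read in any PH20_TG library, where 0 reads allows up to 3. Of the PH20_WT reads of Ccr8, 75 and 26 lay in the B cell-rich replicates 1 and 3, and 10 and 9 in replicates 2 and 4. Cxcl1, also untested, was the other way round, at 0, 0.237, 0.270 and 0 FPKM in PH20_WT and at 1.31, 0.375, 0.288 and 0.749 in PH20_TG. Its closest libraries were PH20_WT replicate 3 with 10 reads and PH20_TG replicate 3 with 9. How many untested genes separate in this way was not counted, so the Ccr8 and Cxcl1 values cannot be weighed. The median log2 fold change was -0.32 over the tested members and 0.01 over all genes.

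Ccl5, which T cells and macrophages make and which acts on Ccr1 and Ccr3 among others, was the lower member. It was at 165.8, 14.6, 61.9 and 10.98 FPKM in PH20_WT and at 8.63, 7.28, 12.3 and 10.2 in PH20_TG. The high controls were replicates 1 and 3, the B cell-rich libraries, and the other 2 controls were close to the transgenic libraries. The log2 fold change was -1.92 (SE 0.77, adjusted p = 0.709, limma). Without PH20_WT replicate 1 or 3 or PH20_TG replicate 1, 2 or 4 the unadjusted limma p was 0.0624, 0.0882, 0.0675, 0.0743 and 0.0586. T cell markers (8 genes) summed to 8.12 to 199 FPKM in PH20_WT and to 3.90 to 8.91 in PH20_TG, and Ccl5 was 83.3% to 179% of that sum in PH20_WT and 114% to 221% in PH20_TG.

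The members raised in Has2_TG were spread widely in PH20_TG. Ccl6 was at 83.2, 56.9, 68.9 and 104.6 FPKM in PH20_WT and at 192.6, 22.1, 24.2 and 91.3 in PH20_TG. The library labelled PH20_TG replicate 1 was above all controls, replicate 4 within their range and replicates 2 and 3 below them, and the log2 fold change was -0.46 (95% interval -1.94 to 1.02). Ackr3 was at 31.3, 10.4, 19.8 and 19.4 FPKM in PH20_WT and at 46.5, 7.16, 7.84 and 53.0 in PH20_TG (0.04, -1.56 to 1.64). For Ackr3 too, the pair of replicates 1 and 4 was above and the pair of 2 and 3 below all controls.

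Ccl8 was at 106.0, 59.6, 94.6 and 67.6 FPKM in PH20_WT and at 120.1, 12.4, 20.3 and 55.8 in PH20_TG (log2 fold change -1.14, 95% interval -2.58 to 0.29). Ccl24 was at 16.7, 9.77, 9.55 and 13.9 FPKM in PH20_WT and at 14.3, 1.36, 2.78 and 9.21 in PH20_TG (-1.33, -2.82 to 0.16). Only PH20_TG replicates 2 and 3 were far below the controls for this pair. The macrophage markers followed the same order within PH20_TG, with sums of 2122, 263, 428 and 861 FPKM in replicates 1 to 4 against 668 to 1142 in PH20_WT. The progenitor markers summed to 721, 145, 183 and 762 FPKM there, against 225 to 756 in PH20_WT. The part of these cells in the spread of the chemokine genes was not tested.

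PH20_TG replicate 1 was the library without a Spam1 read. Without it, 1 member was higher (Ccl25, log2 fold change 0.72) and 5 were lower in PH20_TG: Ccl8 (-1.72), Ccl24 (-1.85), Ccr2 (-1.14), Ccl22 (-3.00) and Ccr1 (-1.58). By the same rule 4.47% of all genes were higher and 4.88% lower in that fit. Ccl8, Ccl24, Ccr2 and Ccr1 had negative fold changes with and without this library. Without PH20_WT replicate 2, 4 members were lower (Ccl5, Ccl22, Cxcl16 and Cxcr6), where 5.21% of all genes were lower. The B cell-rich PH20_WT replicates 1 and 3 stayed in that fit. The 4 B cell-rich controls held 82%, 91%, 54% and 68% of the reads of these members. Ccl22, lower here and without PH20_TG replicate 1, passed the minimum of reads only through PH20_WT replicates 1 and 3. Without PH20_TG replicate 4, 2 members were lower (Ccl24 and Ccr2), against 3.32% of all genes. When PH20_WT replicate 3 or PH20_TG replicate 2 was left out, 0 members passed. With the progenitor score as a covariate 4 were higher (Cxcl14, Ackr3, Ackr1 and Ccl2) and 2 lower (Ccl24 and Ccl27a). Of all genes, 5.30% were higher and 3.57% lower in that fit. Skeletal muscle markers (12 genes) summed to 274 to 1090 FPKM in PH20_WT and to 33.7 to 342 in PH20_TG. With the muscle score as a covariate Cxcl14 (1.69) and Ccl7 (1.38) were higher and 0 members lower, against 1.52% and 0.870% of all genes.

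Whether a member responded differently to the transgenes was tested in 1 fit of all 16 libraries, as the Has2 effect minus the PH20 effect. Of 29 members, 5 had a larger effect in the Has2 comparison and 0 a smaller one, where 4.03% of all 12593 genes were larger and 3.68% smaller. They were Ccl24 (difference 2.53 on the log2 scale, SE 0.82), Ccl8 (2.21, SE 0.75), Ccr2 (1.52, SE 0.61), Ccr1 (2.10, SE 0.86) and Ccl11 (1.31, SE 0.54), with adjusted p from 0.598 to 0.614 (limma). In each, the Has2 effect was positive, and the PH20 effect was negative in 4 and 0.12 in Ccl11. With voom weights 7 were larger and 0 smaller, where 4.56% of all genes were larger and 4.08% smaller. Ackr3 (1.64, 95% interval -0.08 to 3.35), Ccl6 (1.54, -0.04 to 3.12) and Ccl9 (1.22, -0.42 to 2.86) were not past the threshold. Without the 4 B cell-rich controls 0 members passed, with differences of 2.19 for Ccl24, 1.75 for Ccl8, 2.03 for Ccr1, 1.46 for Ccr2 and 0.82 for Ccl11 and a median over 25 members of 0.82, against 0.71 over 29 with all libraries. Ccl8 and Ccl24 passed whichever single library was left out. Ccr2 and Ccr1 did not without Has2_WT replicate 2 or PH20_TG replicate 2 or 3, nor did Ccr2 without PH20_WT replicate 4 or Ccr1 without Has2_TG replicate 1. Ccl11 did not pass without Has2_WT replicate 1, Has2_TG replicate 4, PH20_WT replicate 1 or PH20_TG replicate 2 or 3. Leaving out PH20_TG replicate 2 or 3 left 2 members larger, where 2.56% of all genes were larger in each case. In the first case 1 member was smaller (Cx3cl1), as were 2.56% of all genes. Without Has2_WT replicate 4, PH20_TG replicate 1 or PH20_TG replicate 4, 8, 9 and 10 were larger, against 4.43%, 6.04% and 5.02% of all genes.

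The control groups themselves differed. Of 29 members, 5 were lower in Has2_WT than in PH20_WT and 0 higher, where 4.66% of all genes were lower and 5.61% higher. These were Ccl7 (log2 difference -1.67, SE 0.45), Ccl8 (-1.92, SE 0.53), Ccl24 (-1.57, SE 0.58), Ccl11 (-0.94, SE 0.38) and Cxcl9 (-0.64, SE 0.23), with adjusted p from 0.303 to 0.433 (limma). With voom weights 7 were lower and 0 higher, where 5.23% of all genes were lower and 5.98% higher. The 2 control groups have the same label, Apn-rtTA on doxycycline, and litter, line and any batch cannot be told apart from the group. In 5 of the 29 tested members (Ccl7, Ccl8, Ccl24, Ccr1 and Ackr1) all Has2_WT libraries were below all PH20_WT libraries, as in 3.20% of all genes, and in 0 members all were above, as in 3.14%. Of the 44 values of the 11 raised members in Has2_TG, 29 lay within the range of the PH20_WT libraries, and for Ccl6, Ccl9 and Ackr2 all 4 did. That range was wide for Ackr2, 0.589 to 7.72 FPKM. The same count was not made for the other members or for all genes, so 29 of 44 cannot be weighed. Without the B cell-rich controls, Ccl5, Cxcl9 and Cxcl16 were lower in Has2_WT, while Ccl7 (-1.27), Ccl8 (-1.46), Ccl24 (-1.23) and Ccl11 (-0.46) no longer passed. Without PH20_WT replicate 1 or Has2_WT replicate 1 Ccl11 no longer passed (unadjusted limma p of 0.0752 and 0.113). Cxcl9 did not pass without PH20_WT replicate 4 (unadjusted limma p of 0.0602). Without a single PH20_TG library, which enters that fit only through the spread, 6 to 9 members were lower. Over all genes 4.54% to 5.24% were lower in those fits.

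Some members had most of their reads in the B cell-rich controls. In 11 members every B cell-rich library was above every other library: Ccr6, Cxcr2, Ccr9, Ccr4, Ccl22, Ccl5, Cx3cr1, Xcr1, Cxcr3, Cxcl16 and a scaffold copy of Ccl21c, which had 12 reads. Of the 29 members tested in the fit of all 16 libraries, 6 were among them (Ccl22, Ccl5, Ccr6, Cx3cr1, Cxcl16 and Cxcr3). Of all 12593 genes 3.67% showed this separation. The count of 6 of 29 cannot be weighed against that share, because the minimum of reads was applied over all 16 libraries. Ccr6, Ccl22 and Cx3cr1 passed it only through their reads in the 4 B cell-rich libraries. These 4 libraries held 27.1% of all reads on genes, but 99.9% of the reads of Ccr6, the receptor by which B cells and some T cells follow Ccl20. They also held 90.9% of the reads of Ccl22, a dendritic cell ligand of Ccr4, 92.8% of those of the gut-homing receptor Ccr9 and 81.8% of those of Ccl5. Ccr6 was at 9.57 and 3.44 FPKM in Has2_WT replicates 1 and 2, at 1.58 and 0.896 in PH20_WT replicates 1 and 3, and at 0.0254 or less in all other libraries. Ccl22 was at 18.5 and 11.2 FPKM and at 25.7 and 7.83 in the same libraries, and at 0 to 2.51 in the rest. Cxcr3, the receptor of Cxcl9 and Cxcl10 on T cells, was less concentrated, with 55.7% of its reads in the 4 B cell-rich libraries.

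**Figure D5:**
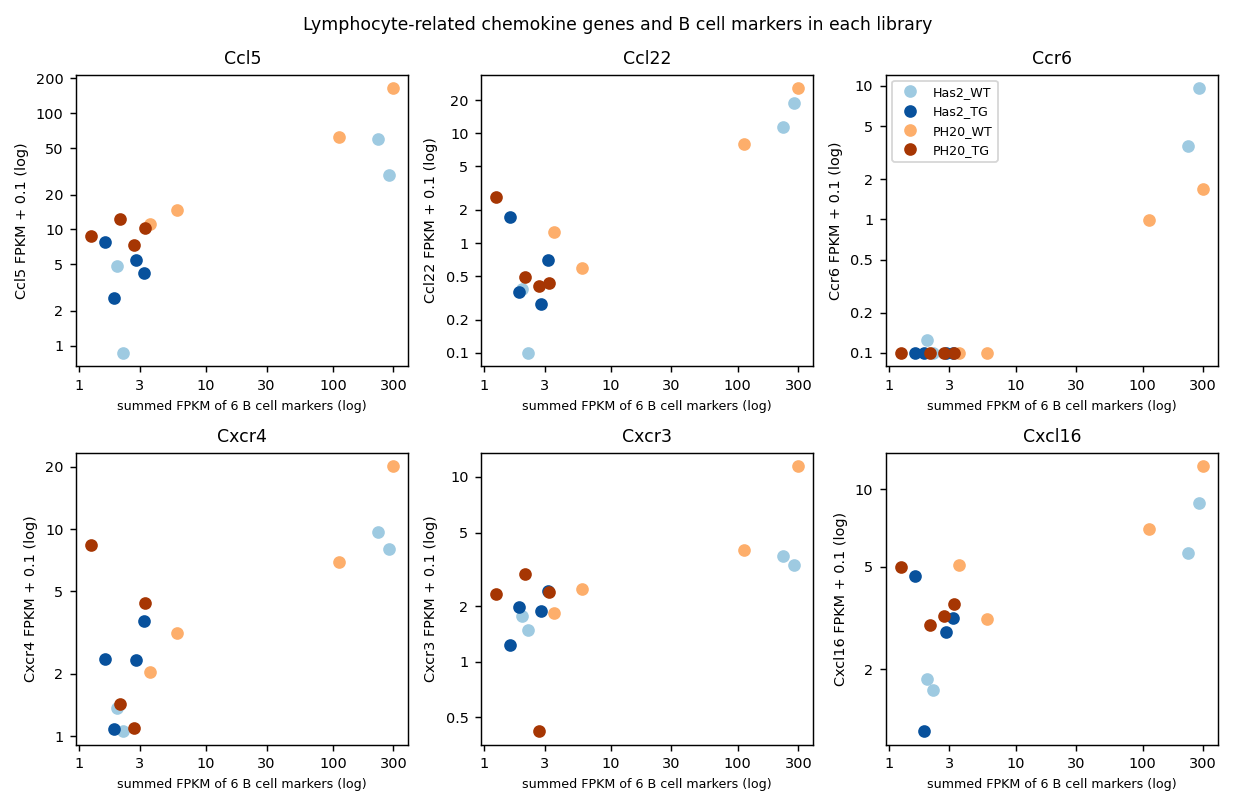
FPKM plus 0.1 of Ccl5, Ccl22, Ccr6, Cxcr4, Cxcr3 and Cxcl16 (vertical, log scale) against the summed FPKM of 6 B cell markers (horizontal, log scale), 1 point per library, coloured by group. The 4 points at the right, at 112 to 299 FPKM of B cell markers, are the B cell-rich controls; Ccr6 is at or near 0 in all 12 others.

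The B cell-rich libraries are all controls. In the Has2 comparison Ccr6 had a log2 fold change of -3.02 (95% interval -6.15 to 0.11), Ccl22 -1.51 (-4.98 to 1.95) and Cxcl16, the ligand of Cxcr6, -0.43 (-1.77 to 0.92). Cxcr6, a receptor of memory T cells and a member not separate in the B cell-rich libraries, had -0.36 (-2.79 to 2.07). In the PH20 comparison Ccl22 had -2.35 (-5.00 to 0.29), Cxcl16 -0.75 (-1.62 to 0.12), Cx3cr1 -0.40 (-1.96 to 1.16) and Cxcr4, a member not separate there either, -0.99 (-2.88 to 0.90). None of these passed the test, and Ccl5 passed in the PH20 comparison. Once the B cell score entered the fit as a covariate, Cxcr6 was higher in Has2_TG (log2 fold change 1.54, unadjusted limma p of 0.0437). It was 1 of 10 members higher in that fit and 0 were lower, where 5.76% of all genes were higher and 3.62% lower. The other 9 were among the 11 of the main fit, without Ccl24 and Ccr2. The B cell-rich controls held 68.2% of the reads of Cxcr6, and why its sign changed was not tested. Lymph node stroma markers (6 genes) summed to 50.5 to 85.5 FPKM in the 4 libraries and to 1.35 to 11.1 in the other 12.

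Other genes of the chemokine pathway were taken from 4 lists. Over all genes tested, 6.25% were higher and 3.75% lower in Has2_TG, and 3.20% were higher and 3.39% lower in PH20_TG. Of 8 tested chemoattractants and receptors with other symbols, 2 were higher in Has2_TG and 0 lower: C5ar1, the receptor of complement C5a (log2 fold change 1.25, SE 0.29), and Pf4, a platelet and macrophage CXC ligand (0.81, SE 0.26). Of 6 tested proteases that process chemokines, 4 were higher and 0 lower, with Dpp4 at 1.77 (SE 0.28), Mmp2 at 1.48 (SE 0.34) and Anpep at 1.14 (SE 0.27). Dpp4 is itself 1 of the 7 progenitor markers. The list had a median of 1.06, against -0.03 over all genes.

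Of 9 genes of glycosaminoglycan presentation, 2 were higher, Tnfaip6, a hyaluronan-binding protein (1.80, SE 0.32), and the proteoglycan Sdc2 (0.71, SE 0.16), and 0 were lower. Of 29 genes of receptor signalling and desensitization, 0 were higher and 3 lower, the receptor kinases Grk6 (-0.61, SE 0.27) and Grk3 (-0.75, SE 0.32) and the tyrosine kinase Ptk2b (-0.81, SE 0.34), with a median of -0.27 over the list. In PH20_TG, Sdc1 (0.90, SE 0.32) and Ext2 (0.32, SE 0.12), 2 of 9 genes of glycosaminoglycan presentation, were higher. Rgs2 (-1.08, SE 0.44), 1 of 30 signalling genes, was lower, a share close to the 3.39% of all genes. The chemoattractant and protease lists had 0 genes past the threshold in either direction, with medians of 0.19 and 0.07. None of these list genes passed 0.05 after adjustment over all genes.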

How the data were processed

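Per the methods of the study, the authors used STAR (2.7.9a) for alignment to GRCm38 and for counting reads per gene, with FastQC (0.11.9) and MultiQC (1.12) as checks, and tested genes averaging 50 reads or more with DESeq2. The values deposited by the authors are FPKM per gene and library for 54532 genes, with gene lengths. Multiplied by length and a library total, 100% of the FPKM came out as whole reads (tolerance 0.01), and these totals, 0.886 to 1.14 times the reads on genes, carry median-of-ratios scaling. Reads on genes were 14421692 to 26751729 per library, and the floor of 3 reads covers counting error only.

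Genes averaging 50 reads or more were tested with limma (3.58.1, R 4.3.3) on log2(FPKM + 0.1) with a variance trend, two-sided, on the 8 libraries of each study, and on all 16 for the difference of effects and of controls. The threshold was an unadjusted p below 0.05, that of the study, and adjusted values are over all genes. Fold changes on this scale understate those of low genes. The procedure was tested on simulated data, and no count model was fitted. The 120 pairs of libraries all differed beyond sampling noise (chi-square per degree of freedom at least 28.7).

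Members, gene lists and tests were chosen with earlier results of these data known. By rule, the genes named were members past the threshold in either comparison or their difference, the 12 most abundant, the 5 most variable over controls, receptors and ligands of called members, members without a read, and up to 3 genes per list. Other members were named after their values were seen. For 1 tested member, included in the counts, no values are reported here. Promoters are RefSeq's (GRCm38.p6), present for 43 of 56 symbols and 8 of the 11 called ones. Alternatives were a pseudocount of 1, no minimum, a mean FPKM of at least 1, median-of-ratios, quantile and total-read scaling, voom weights, a replicate block, marker scores as covariates, all 16 libraries in one fit, no B cell-rich controls, and each library left out.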

Additional observations from a re-analysis of the deposited data

Results flagged for a closer look

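In 120 groups of 4 libraries (30 members in 4 groups), 7 libraries stood apart from the other 3 of their group by Dixon's test on log2(FPKM + 0.1), and chance gives about 1 in 20. Ccl6 was at 59.9 FPKM in Has2_WT replicate 4 against 30.3 to 33.8 in the other controls, and Ccl24 was at 7.64 in the same library against 3.14 to 3.46. Ccl9 was at 19.5 FPKM in Has2_TG replicate 4 against 27.2 to 27.3. In the library labelled PH20_TG replicate 1, Ccl22 was at 2.51 FPKM against 0.303 to 0.387 and Ccl25 at 0.517 against 1.06 to 1.195. Cxcl10 was at 1.14 FPKM in PH20_WT replicate 1 against 3.75 to 4.37, and Cxcr3 at 0.319 in PH20_TG replicate 2 against 2.22 to 2.87.

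For 5 members the Has2 effect differed from the PH20 effect in the fit of all 16 libraries (limma, unadjusted p below 0.05). The differences on the log2 scale were 2.53 for Ccl24, 2.21 for Ccl8, 2.10 for Ccr1, 1.52 for Ccr2 and 1.31 for Ccl11, and none passed after adjustment.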

How the results depend on the processing

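In the Has2 comparison the count of 11 called members stayed within 1.5-fold under 11 of 14 settings. It was 4 with the macrophage score, 7 with all 16 libraries in one fit and 3 with the adipocyte progenitor score, a setting chosen, like the total-read scaling and the removal of the B cell-rich controls, after seeing the data. Leaving out single libraries gave 10 to 13. Ccl7 fell under the minimum of reads without Has2_TG replicate 4. With the progenitor score Ackr2 (-0.998) and Ccr2 (-0.33) turned negative. In the PH20 comparison the count of 1 became 3 with no minimum of reads, 8 with the replicate block, 3 with the macrophage score, 2 with the skeletal muscle score, 2 with all 16 libraries and 6 with the progenitor score, and 0 to 6 without single libraries. It stayed 1 with voom weights, with the B cell score and without the B cell-rich controls. The member called was then Ccl24, Cxcl9 and Ccr10, in place of Ccl5. For the difference of effects the count of 5 became 9 with the replicate block, 3 with the progenitor score, 0 without the B cell-rich controls and 2 to 10 without single libraries. For the controls the count of 5 became 8 with the B cell score, 8 with total-read scaling, 3 without the B cell-rich controls and 4 to 9 without single libraries. Over these settings 3.38% to 6.95% of all genes were higher and 2.61% to 4.82% lower in the Has2 comparison. In the PH20 comparison these shares were 1.52% to 5.30% and 0.870% to 5.34%. For the difference of effects 2.34% to 6.04% of all genes were larger and 2.31% to 4.89% smaller. For the controls 3.13% to 7.23% were higher and 2.91% to 8.00% lower. The cause of the moved counts was not tested.

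The replicate numbers were not taken as pairs in the main fits, and the labels do not say that they are. Whether they pair libraries in the PH20 study was not settled by the values that follow. The deviations of same-numbered libraries correlated at -0.01, 0.13, -0.18 and 0.01 in the Has2 study and at 0.35, 0.42, -0.03 and -0.04 in the PH20 study, and with the replicate block 11 members were higher in the Has2 comparison. In the PH20 comparison the block gave 1 higher (Ccl2) and 7 lower (Ccl8, Ccl5, Ccl24, Ccr2, Ccl22, Cxcl16 and Ccl27a), where 5.05% of all genes were higher and 5.34% lower. For Ccl5, Ccl22 and Cxcl16 every B cell-rich control was above every other library. No block was fitted between the control groups. Levels did not move with median-of-ratios scaling, which the deposited values already carry. With 4 libraries per group and members under 50 reads, changes under about 2-fold were often not detectable.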
